A study of Homo sapiens with 6 samples.

Results

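Telomerase and the proteins of telomeres were followed through 10 genes, TERT, TERC, DKC1, WRAP53, COIL, TERF1, TERF2, TINF2, POT1 and ACD, taken by gene name from the 58735 genes of the count table. RNA-seq was performed on LoVo, an established human colorectal cancer cell line, after transfection with a negative control siRNA (si-NC, 3 libraries) or an SRSF11 siRNA (si-SRSF11, 3 libraries). All 6 libraries came from this 1 line, and the text of the study does not say which of its SRSF11 siRNAs went into the sequenced cells. RNA with a poly(A) tail was selected, read as 150 bp paired ends and deposited as raw read counts per gene, which added up to 14369525 to 15514404 per si-NC library and to 15688702 to 16685719 per si-SRSF11 library. The libraries were described as pairs of independent RNA samples, and every p value below measures the spread between these libraries. In the edgeR quasi-likelihood tests, the spread of each gene was moderated by that of the other tested genes.

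Telomeres are the repeated DNA ends of chromosomes, and telomerase lengthens them. TERT is the reverse transcriptase of the enzyme, and TERC is the RNA that carries the template for the repeat. TERC belongs to the H/ACA class of small RNAs, whose core proteins are DKC1 (dyskerin), NHP2, NOP10 and GAR1. WRAP53 (TCAB1) takes the enzyme to Cajal bodies, nuclear bodies that COIL (coilin) holds together. At the chromosome end, the shelterin complex covers the repeats. Its subunits TERF1 (TRF1) and TERF2 (TRF2) bind the double strand, POT1 binds the single strand, TINF2 (TIN2) and ACD (TPP1) bridge them, and TERF2IP (RAP1) rides on TERF2. SRSF11 is an SR-like splicing factor that is also known to bind telomerase and to bring it to nuclear speckles and telomeres, so its knockdown raised the question of whether RNA levels of these genes moved with it.

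The template and the box that gives the H/ACA class its name are shown first, since TERC is the 1 gene of the 10 without a single assigned count. Both stretches were copied 5′ to 3′ from the annotated transcript of 541 bases, in DNA letters. In the first line, which holds bases 1 to 80, capitals mark the template at bases 46 to 56. In the second, which holds bases 406 to 485, capitals mark the ACA box at bases 446 to 448.
TERC template region: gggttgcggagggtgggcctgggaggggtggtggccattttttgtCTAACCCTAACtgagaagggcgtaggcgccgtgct
TERC ACA box region: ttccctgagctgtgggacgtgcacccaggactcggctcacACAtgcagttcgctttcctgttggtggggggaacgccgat

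The promoters of TERT, ACD and PARD6A are shown because TERT is the catalytic gene of the set and because ACD and PARD6A, head-to-head neighbours on chromosome 16, were both lower in si-SRSF11. Each window runs from 250 bases before to 50 bases after the RefSeq start (GRCh38.p14) and is written 5′ to 3′ on the strand of its gene. Capitals mark the E-box CACGTG, a site of MYC and its relatives, and the GC box GGGCGG or its complement CCGCCC, a site of the SP1 family.
TERT, chr5:1295019-1295318, minus strand: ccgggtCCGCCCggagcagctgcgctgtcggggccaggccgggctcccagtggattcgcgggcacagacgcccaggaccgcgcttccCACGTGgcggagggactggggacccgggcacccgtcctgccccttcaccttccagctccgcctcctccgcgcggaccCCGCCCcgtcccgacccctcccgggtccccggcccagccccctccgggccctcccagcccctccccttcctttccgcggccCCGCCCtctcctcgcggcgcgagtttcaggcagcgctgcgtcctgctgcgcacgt
ACD, chr16:67660211-67660510, minus strand: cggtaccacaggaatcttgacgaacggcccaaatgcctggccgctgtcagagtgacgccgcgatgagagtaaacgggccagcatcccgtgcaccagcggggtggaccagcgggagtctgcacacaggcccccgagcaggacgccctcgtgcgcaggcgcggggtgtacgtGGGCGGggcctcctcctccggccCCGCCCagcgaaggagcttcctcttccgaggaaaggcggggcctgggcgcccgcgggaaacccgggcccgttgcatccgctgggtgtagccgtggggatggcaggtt
PARD6A, chr16:67660710-67661009, plus strand: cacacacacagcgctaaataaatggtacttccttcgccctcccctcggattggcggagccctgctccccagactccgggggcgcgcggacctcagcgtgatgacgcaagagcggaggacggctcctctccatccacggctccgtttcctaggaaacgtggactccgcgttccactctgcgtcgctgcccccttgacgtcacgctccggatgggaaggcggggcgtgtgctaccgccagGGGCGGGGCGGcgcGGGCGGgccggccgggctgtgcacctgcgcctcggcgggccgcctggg

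The TERT window held 1 E-box and 3 GC boxes, the ACD window 2 GC boxes and the PARD6A window 3, of which the first pair overlaps. The TERT window ends in CACGT, and an E-box that crosses the edge of a window was not counted. Of the 10 genes, 7 had a promoter in the RefSeq table. A GC box stood in at least 1 window of each of these 7 genes, and an E-box in TERT alone. Over all 35116 promoters of that table, 45.0% held a GC box and 7.3% an E-box on either strand. These matches are letters in a window and were not measured as binding.

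SRSF11 was read first as a check of the labels. Its counts were 1271, 1281 and 1363 in si-NC replicates 1, 2 and 3 and 789, 789 and 807 in si-SRSF11 replicates 1, 2 and 3, and the log2 fold change was -0.81 (SE 0.054, adjusted p = 6.1e-10, edgeR quasi-likelihood test with Benjamini-Hochberg adjustment over 15801 tested genes), which left 57.2% of the si-NC level. Across all tested genes, 2081 were higher and 1805 lower in si-SRSF11 at an adjusted p under 0.05, and scaling by library size alone turned this split to 1585 higher and 2289 lower. Of the 9 intestinal epithelial markers checked, 7 had a mean over the 6 libraries above 1 CPM (library-size-normalized counts, scaled by TMM), among them EPCAM, KRT8, CDX2 and VIL1, and the means of KRT20 and CEACAM5 were below it. The epithelial sum was 5079 to 5409 CPM in si-NC and 5176 to 5513 in si-SRSF11, most of it KRT8 and KRT18. Within this list CDX2 (log2 fold change 0.40, adjusted p = 0.00038) and CDX1 (0.31, adjusted p = 0.0012) were higher in si-SRSF11 by edgeR's quasi-likelihood test. The sum of 11 stromal, immune and endothelial markers was 21.3 to 25.2 CPM in si-NC and 26.1 to 32.0 in si-SRSF11, with DCN and PTPRC among those at 0 in each library. Most of this sum was COL1A1 and PDGFRB. Of the 4 genes of this list with enough counts to be tested, PDGFRB was the 1 called, higher in si-SRSF11 (log2 fold change 0.70, adjusted p = 0.00023 in edgeR), while COL1A1 was at 12.4 to 13.0 CPM in si-NC and 11.0 to 13.2 in si-SRSF11. The part of these markers in the results below was not tested.

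Of the 10 telomere genes, 9 had enough reads to be tested (at least 10 counts in at least 3 libraries) and 3 passed an adjusted p under 0.05. TERF1 and DKC1 were higher in si-SRSF11 and ACD was lower. This is 33.3% of the 9, beside 24.6% of all tested genes in either direction, 13.2% higher and 11.4% lower, so the share lay near that of the table as a whole. The median log2 fold change of the 9 was 0.07, beside 0.00 for all tested genes. TERF1, DKC1 and COIL showed no overlap between the groups, which 38.8% of all tested genes also did. In RNA from whole cultures, more RNA per cell and more cells that express a gene cannot be told apart.

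**Figure D1:**
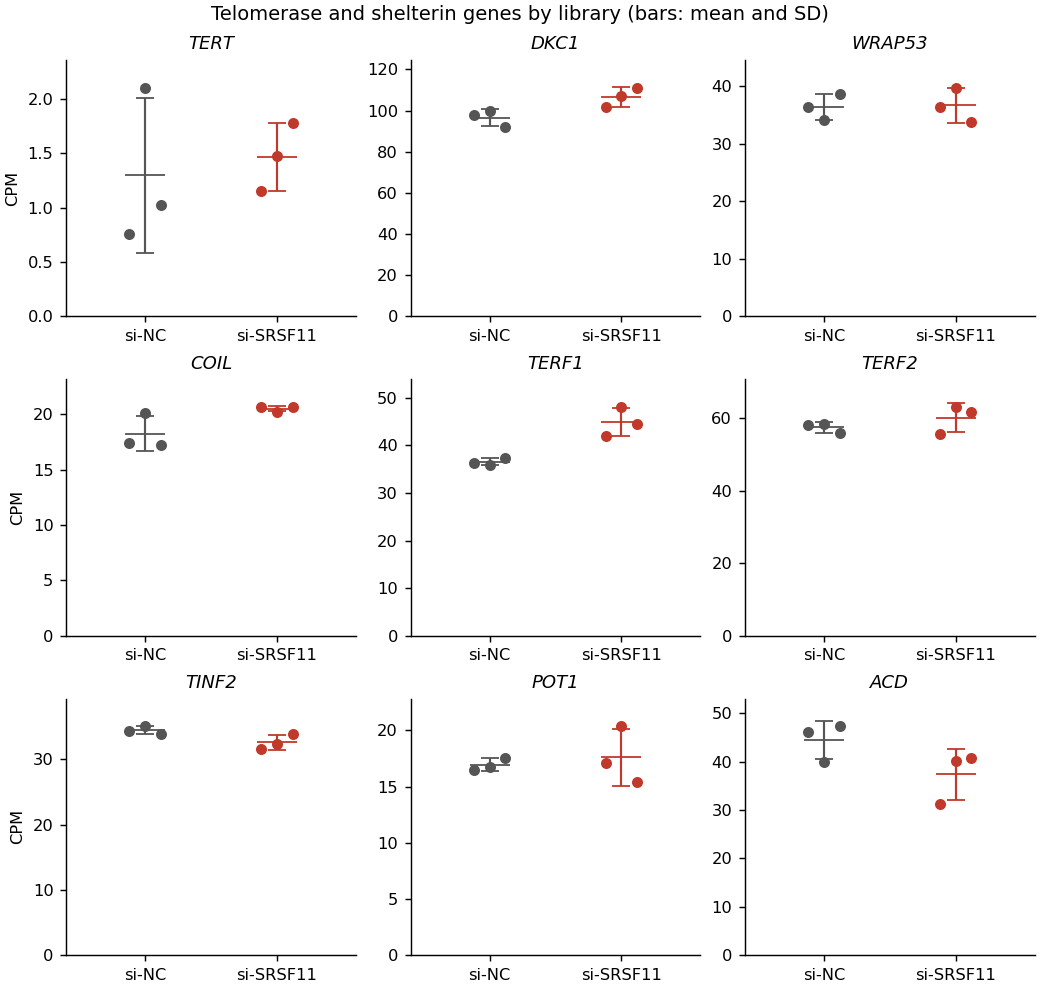
CPM of the 9 genes with reads in each library (points, in the order of replicates 1, 2 and 3), with the mean and SD of 3 libraries per group as bars and each vertical axis starting at 0. The TERF1, DKC1 and COIL points of si-SRSF11 lie above all si-NC points, while the ACD point of si-SRSF11 replicate 1, at 31.3 CPM, lies below the other 5.

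TERF1 (TRF1, the subunit that binds the double-stranded repeat and is known as a brake on telomere lengthening) moved most among the genes that passed. It lies on chromosome 8 of GRCh38 (73008864 to 73048122, plus strand, ENSG00000147601). The libraries held 527, 546 and 582 counts in si-NC and 658, 782 and 727 in si-SRSF11, or 36.3, 35.9 and 37.4 CPM against 42.1, 48.1 and 44.6 CPM. All 3 si-SRSF11 libraries lay above all 3 si-NC libraries. The mean of TERF1 was 36.5 ± 0.740 CPM (SD, n = 3) with si-NC and 44.9 ± 3.04 CPM (SD, n = 3) with si-SRSF11, 123% of the control level. On the log2 scale it was higher by 0.30 (SE 0.067, 95% interval 0.16 to 0.44, adjusted p = 0.0022, edgeR quasi-likelihood test). It passed in 6 of 6 fits that left out 1 library, with values from 0.25 to 0.34. The 5 processed copies of TERF1 that the table lists held 0 to 6 counts per library together, and 0.372% of the 100-base windows of the longest TERF1 transcript occur in 1 of them, TERF1P5.

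TERF2 (TRF2), its partner on the double strand, which keeps chromosome ends from being joined, had 842, 888 and 870 counts in si-NC and 869, 1026 and 1005 in si-SRSF11. After scaling these were 58.1, 58.4 and 55.9 against 55.6, 63.1 and 61.6 CPM, so the groups overlapped. Its log2 fold change of 0.07 had a 95% interval from -0.06 to 0.19 (adjusted p = 0.47, edgeR quasi-likelihood test). Within each library, the ratio of TERF1 to TERF2 does not depend on scaling. It was 0.626, 0.615 and 0.669 in si-NC and 0.757, 0.762 and 0.723 in si-SRSF11, without overlap. The difference in log2 ratio was 0.23 (p = 0.1 and adjusted p = 0.4 over 4 ratios in a two-sided exact permutation test, which cannot go lower with 3 libraries against 3).

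DKC1 (dyskerin, the pseudouridine synthase that stabilizes TERC and is mutated in dyskeratosis congenita) was the other gene that was higher. It lies on chromosome X (154762742 to 154777689, plus strand, ENSG00000130826). Its counts were 1418, 1516 and 1431 in si-NC and 1589, 1743 and 1814 in si-SRSF11. In CPM these were 97.8, 99.8 and 91.9 against 102, 107 and 111, so the groups did not overlap, although the lowest si-SRSF11 library lay close to the highest si-NC library. The means were 96.5 ± 4.10 CPM (SD, n = 3) and 107 ± 4.85 CPM (SD, n = 3), and the log2 fold change was 0.15 (SE 0.052, 95% interval 0.04 to 0.25, adjusted p = 0.044, edgeR quasi-likelihood test). The call rested close to the threshold. It was lost in each fit that left out 1 library other than si-SRSF11 replicate 1, where the fold changes ran from 0.11 to 0.17 and the highest adjusted p was 0.21, without si-NC replicate 3. It was also lost with DESeq2 (adjusted p = 0.093) and with scaling by library size alone (0.11, adjusted p = 0.12 in edgeR). The 3 small RNA genes inside DKC1 exons, SNORA36A, MIR664B and SNORA56, were listed at 0 in each library.

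ACD (TPP1, the shelterin subunit that recruits telomerase to the chromosome end) was the gene that was lower. It lies on chromosome 16 (67657512 to 67660815, minus strand, ENSG00000102977). The counts were 668, 607 and 737 in si-NC and 490, 651 and 664 in si-SRSF11, or 46.1, 39.9 and 47.3 CPM against 31.3, 40.1 and 40.7 CPM. The groups overlapped, since si-NC replicate 2 lay just below si-SRSF11 replicates 2 and 3. ACD averaged 44.4 ± 3.95 CPM (SD, n = 3) with si-NC and 37.4 ± 5.24 CPM (SD, n = 3) in si-SRSF11, with a log2 fold change of -0.25 (SE 0.086, 95% interval -0.43 to -0.07, adjusted p = 0.038, edgeR quasi-likelihood test). The call passed in 3 of 6 fits that left out 1 library. It was lost without si-NC replicate 1 (-0.22, adjusted p = 0.14), without si-NC replicate 3 (-0.20, adjusted p = 0.16) and without si-SRSF11 replicate 1 (-0.14, adjusted p = 0.19), and with DESeq2 on all 6 libraries (-0.26, adjusted p = 0.052). The exact two-sided permutation test of the CPM gave p = 0.3.

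PARD6A, a cell polarity gene on the plus strand of chromosome 16, starts 131 bases from the GENCODE start of ACD (67660815) and shares no exon base with it. The ACD window printed above is set on a RefSeq start that lies inside the GENCODE gene. That window does not reach the GENCODE start, and it does not overlap the PARD6A window. The PARD6A window itself spans the GENCODE start of ACD. PARD6A had 253, 241 and 258 counts in si-NC and 173, 216 and 232 in si-SRSF11. Scaled, these came to 17.5, 15.9 and 16.6 CPM against 11.1, 13.3 and 14.2 CPM, and si-SRSF11 replicate 1 was the lowest library for both genes. The log2 fold change of PARD6A was -0.37 (95% interval -0.59 to -0.14, adjusted p = 0.015, edgeR quasi-likelihood test), and the groups did not overlap. The call was lost without si-NC replicate 1 (-0.33, adjusted p = 0.067) and without si-SRSF11 replicate 1 (-0.28, adjusted p = 0.077). CARMIL2, which shares 58 exon bases with ACD on the other strand, had a log2 fold change of 0.03 (95% interval -0.10 to 0.17, adjusted p = 0.75).

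TINF2 (TIN2), which ties TERF1 and TERF2 to ACD, had 499, 533 and 528 counts in si-NC and 495, 526 and 553 in si-SRSF11. That is 34.4, 35.1 and 33.9 CPM against 31.7, 32.4 and 33.9 CPM, and the ranges met. The difference was -0.08 on the log2 scale (95% interval -0.22 to 0.06, adjusted p = 0.45). POT1, which binds the single-stranded overhang as the partner of ACD, had 239, 255 and 274 counts in si-NC and 267, 331 and 251 in si-SRSF11. Its si-SRSF11 libraries, at 17.1, 20.4 and 15.4 CPM, lay on both sides of the si-NC libraries, at 16.5, 16.8 and 17.6 CPM. The log2 fold change of POT1 was 0.05, with an interval from -0.16 to 0.27 (adjusted p = 0.75). The antisense gene POT1-AS1, whose start lies 110 bases from that of POT1, held 4 to 13 counts and was not tested.

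The ratio of POT1 to ACD within a library was 0.358, 0.420 and 0.372 in si-NC and 0.545, 0.508 and 0.378 in si-SRSF11. The groups overlapped, with a difference in log2 ratio of 0.30 (exact two-sided permutation test, p = 0.2). For TINF2 to ACD the difference was 0.18 (exact permutation p = 0.3). TERF2IP, the shelterin subunit outside the set of 10, had 1776, 1803 and 1871 counts in si-NC and 1647, 1881 and 2054 in si-SRSF11, with a log2 fold change of -0.06 (95% interval -0.17 to 0.06). Of the shelterin genes, TERF1 and ACD were thus the pair that passed the test, in opposite directions.

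**Figure D2:**
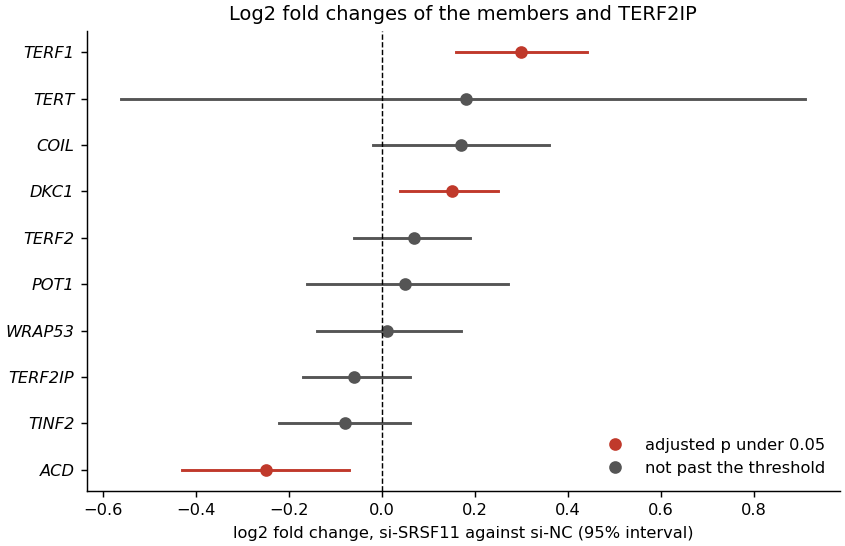
Log2 fold change of si-SRSF11 against si-NC for the 9 tested genes and TERF2IP (points), with 95% intervals as lines and genes past an adjusted p of 0.05 in red. The intervals of TERF1 (0.16 to 0.44), DKC1 (0.04 to 0.25) and ACD (-0.43 to -0.07) leave out 0, and that of TERT, from -0.56 to 0.91, is the widest.

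TERT (chromosome 5, 1253147 to 1295069, minus strand, ENSG00000164362) had the fewest counts of the 9 tested telomere genes. Its counts were 11, 32 and 16 in si-NC and 18, 24 and 29 in si-SRSF11, or 59 and 71 in all. In CPM these were 0.759, 2.11 and 1.03 against 1.15, 1.48 and 1.78, and si-NC held both the lowest and the highest library. The means were 1.30 ± 0.713 CPM and 1.47 ± 0.314 CPM (SD, n = 3 each). The log2 fold change was 0.18 with an interval from -0.56 to 0.91 (adjusted p = 0.76, edgeR quasi-likelihood test), and without si-NC replicate 1 it was -0.09. The variance of the 3 si-NC counts was 6.12 times their mean, and that of the 3 si-SRSF11 counts 1.28 times, so the direction of any TERT difference was not resolved by these libraries.

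TERC (chromosome 3, 169764520 to 169765060, minus strand, ENSG00000270141) was listed at 0 counts in each of the 6 libraries, 0 of 93701127 counts in all. A count of 0 allows up to 3 counts, or 0.184 to 0.207 CPM per library, and covers counting error only. The mature RNA of TERC has no long poly(A) tail, and its annotated transcript holds no run of A longer than 6. The table also lists RF00024, an entry named after an RNA family, which was at 0 too. It shares 438 of the 541 exon bases of TERC on the same strand, so 103 bases were left to TERC alone. RF00024 starts 13 bases from the TERC start, so apart from those 13 the bases left to TERC lie past the ACA box. The limit above is thus one for the annotated entry, not for the mature RNA. Some other RNAs without a poly(A) tail were looked up after the TERC values were seen. RMRP (under 2 identifiers), RPPH1, RN7SK and SCARNA2 were at 0 in each library as well. Whether these entries share exon bases with other entries was not looked up. The part of poly(A) selection and of the overlap in the 0 of TERC was not tested, and its level in these cells was not measured.

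WRAP53 (TCAB1) and COIL mark the route of telomerase through the Cajal body. WRAP53 (chromosome 17, 7686071 to 7703502, plus strand) was counted 528, 517 and 601 times in si-NC and 570, 646 and 550 in si-SRSF11. In CPM these were 36.4, 34.0 and 38.6 against 36.5, 39.8 and 33.7, and the groups overlapped. The log2 fold change was 0.01 (95% interval -0.14 to 0.17), and -0.02 with scaling by library size alone.

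COIL (coilin, chromosome 17, 56938187 to 56961054, minus strand) had 252, 306 and 269 counts in si-NC and 323, 329 and 337 in si-SRSF11. The scaled levels were 17.4, 20.1 and 17.3 CPM against 20.7, 20.2 and 20.7 CPM. All si-SRSF11 libraries lay above all si-NC libraries, by a margin of 20.2 against 20.1 CPM at the closest. Its log2 fold change of 0.17 had an interval from -0.02 to 0.36 (adjusted p = 0.19, edgeR quasi-likelihood test). The ratio of DKC1 to WRAP53 within a library ran from 2.38 to 2.93 in si-NC and from 2.70 to 3.30 in si-SRSF11, with a difference in log2 ratio of 0.13 (exact two-sided permutation test, p = 0.4).

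Between genes, levels were compared as CPM per kilobase of merged exons, a scale on which genes with long or many isoforms come out lower. In si-NC, DKC1 stood highest at 23.0 ± 0.976 CPM per kb (SD, n = 3). ACD followed at 13.8 ± 1.22, TINF2 at 12.7 ± 0.217, TERF2 at 10.2 ± 0.248 and WRAP53 at 7.14 ± 0.449 CPM per kb. COIL stood at 6.03 ± 0.536, TERF1 at 4.14 ± 0.0837, POT1 at 2.87 ± 0.0973 and TERT at 0.282 ± 0.155 CPM per kb. The libraries of neighbours in this order did not overlap in si-NC, except those of ACD and TINF2. In si-SRSF11, ACD (11.6 ± 1.63) and TINF2 (12.04 ± 0.427) overlapped with the order of their means turned, and WRAP53 (7.20 ± 0.592) overlapped with COIL (6.77 ± 0.0795).

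**Figure D3:**
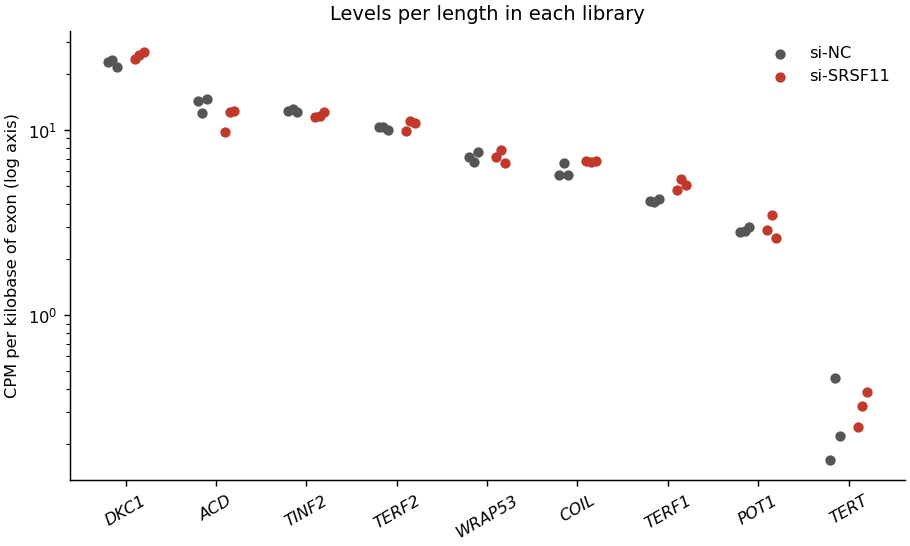
CPM per kilobase of merged exons on a log axis for each library of the 9 genes with reads, in the order of their si-NC means. DKC1 lies highest in both groups and TERT lowest, with si-NC means of 23.0 and 0.282 CPM per kb.

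The wider machinery was read in 6 lists of genes, each described by how many of its genes passed an adjusted p under 0.05 in edgeR's quasi-likelihood test, beside 24.6% of all tested genes, 13.2% higher and 11.4% lower. Of the 18 genes that assemble telomerase or process its RNA, 4 were higher, none was lower, and the median log2 fold change was 0.11. The H/ACA core protein NHP2 rose from 1053, 1070 and 1093 counts in si-NC to 1418, 1471 and 1523 in si-SRSF11 (0.37, adjusted p = 1.6e-05), although 27.4% of its exon bases are shared with RMND5B. GAR1, the core protein that joins the RNP last, rose from 618, 646 and 630 to 746, 882 and 926 counts (0.34, adjusted p = 0.00081). SHQ1, the chaperone of dyskerin, rose by 0.37 (adjusted p = 0.0068), a call lost without si-NC replicate 3 (0.30, adjusted p = 0.052). HSP90AA1, an HSP90 chaperone that binds TERT and many other proteins, rose most, from 3233, 3357 and 3518 to 6134, 6361 and 6283 counts (0.80, adjusted p = 4.9e-11). NOP10, the remaining H/ACA core protein, did not pass (0.11, adjusted p = 0.18) and is named here after its value was seen.

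In the H/ACA core, DKC1, NHP2 and GAR1 were therefore called higher and NOP10 was not called. The 3 calls differed in how they stood up to the loss of 1 library. NHP2 and GAR1 passed in 6 of 6 such fits, and DKC1 passed in 1 of 6. NOP10 also passed in 1 of 6, with fold changes from 0.04 to 0.15, beside 0.11 to 0.17 for DKC1. These values do not set DKC1 and NOP10 apart.

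Of 15 genes listed as binding, modifying or turning over shelterin proteins, 3 were higher and 1 was lower, with a median log2 fold change of -0.01. The count was 2 without si-NC replicate 3. RLIM, a ubiquitin ligase of TERF1, had 996, 1069 and 1032 counts in si-NC and 1341, 1342 and 1238 in si-SRSF11 (0.25, adjusted p = 0.0024, in edgeR as are the values that follow). USP7, a deubiquitinase that acts on ACD among many proteins, was higher (0.17, adjusted p = 0.015, and 0.14 with adjusted p = 0.05 and no call under library size alone), as was MCPH1, a chromatin protein that binds TERF2 (0.31, adjusted p = 0.017). Each of these 2 calls was lost in 3 of 6 fits that left out 1 library, for USP7 without si-NC replicates 1 or 3 or si-SRSF11 replicate 2, where it was 0.13 at the lowest, and for MCPH1 without si-NC replicates 1 or 3 or si-SRSF11 replicate 1, where it was 0.28 at the lowest. APTX, a DNA end repair enzyme whose place on this list was not checked here, was lower (-0.24, adjusted p = 0.0038).

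Of 20 tested genes that replicate or process chromosome ends, 5 were higher and none was lower, with a median log2 fold change of 0.06. The count was 3 without si-NC replicate 3. The nuclease and helicase DNA2 rose by 0.44 (adjusted p = 0.0024) and the checkpoint kinase ATR by 0.50 (adjusted p = 0.0043), both in 6 of 6 fits that left out 1 library. NBN, of the MRN complex, rose by 0.24 (adjusted p = 0.0077, and 0.066 without si-NC replicate 3). RPA1, of the single-strand binding complex RPA, rose by 0.19 (adjusted p = 0.012, and 0.058 without si-NC replicate 2). The kinase ATM was at 0.26 (adjusted p = 0.048), with overlapping groups, and passed in 2 of 6 such fits, those without si-NC replicate 2 or si-SRSF11 replicate 3. It was 0.18 (adjusted p = 0.23) without si-SRSF11 replicate 2, and it did not pass with DESeq2 on all 6 libraries (adjusted p = 0.083). TEN1 was too low to be tested, at 0 to 5 counts.

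Of 19 chromatin genes of chromosome ends, 10 were higher and none was lower, or 52.6%, with a median log2 fold change of 0.16. The count ranged from 7 to 11 as each library was left out. The nuclear receptor NR2F2 (0.34, adjusted p = 2.7e-05), the replication timing factor RIF1 (0.47, adjusted p = 0.00012) and SMCHD1, a silencing factor (0.30, adjusted p = 0.003), rose. The heterochromatin proteins CBX5 (0.32, adjusted p = 0.00027) and CBX1 (0.24, adjusted p = 0.0011) rose as well. These genes were picked by the smallest adjusted p of the list. Their groups did not overlap, which was so for 38.8% of all tested genes. RIF1 counts, for example, were 298, 320 and 324 in si-NC and 439, 468 and 487 in si-SRSF11. ATRX and DAXX, the pair whose loss is known from cells that keep telomeres without telomerase, were at 0.34 (adjusted p = 0.049) and 0.16 (adjusted p = 0.091), and are named after their values were seen. The ATRX call was lost without si-SRSF11 replicates 2 or 3 and without si-NC replicate 3, where the fold change was 0.19 (adjusted p = 0.29).

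Of 18 tested genes that act on the TERT promoter, 3 were higher and 3 lower, with a median log2 fold change of 0.00. MYC, a factor that binds E-boxes, had 3859, 3793 and 4363 counts in si-NC and 4799, 4815 and 5193 in si-SRSF11 (0.21, adjusted p = 0.0035). MXD1, which competes with MYC for its partner MAX, was lower (-0.26, adjusted p = 0.015). ETS2 was higher (0.24, adjusted p = 0.0026), while ETS1 (-0.48, adjusted p = 0.02) and KLF4 (-0.17, adjusted p = 0.029, and 0.05 with no call in DESeq2) were lower. The third higher gene was CTCF (0.16, adjusted p = 0.034), which is named after its value was seen and was lost without si-NC replicates 2 or 3 (adjusted p up to 0.14) or si-SRSF11 replicate 2. The count was 8 without si-SRSF11 replicate 1 and 3 without any 1 of the other libraries. The calls of MYC and ETS2 passed in 6 of 6 fits that left out 1 library, those of MXD1, ETS1 and KLF4 in 3, 2 and 1. The lost calls were those without si-NC replicates 1 or 2 or si-SRSF11 replicate 3 for MXD1, without si-NC replicates 1 or 3 or si-SRSF11 replicates 2 or 3 for ETS1, and all but that without si-SRSF11 replicate 1 for KLF4. The smallest fold changes of these 3 genes in those fits were -0.22, -0.43 and -0.15. WT1 held 0 to 3 counts and was not tested.

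Of 21 genes of the Cajal body and the SMN complex, 7 were higher and 2 lower, with a median log2 fold change of 0.12. The count was 5 without si-NC replicate 2. NOLC1 (Nopp140), a chaperone of small RNPs that binds coilin, rose from 2405, 2440 and 2496 counts to 3868, 3943 and 3874 (0.58, adjusted p = 6.4e-09). NOP56, a core protein of box C/D RNPs, rose by 0.32 (adjusted p = 2.8e-05), GEMIN5, which reads snRNAs for the SMN complex, by 0.24 (adjusted p = 0.0037), and ICE1, a scaffold of snRNA transcription, by 0.30 (adjusted p = 0.0056). LSM10 of the U7 snRNP was lower (-0.27, adjusted p = 0.0021), as was its partner LSM11 (-0.39, adjusted p = 0.0089, and -0.31 with adjusted p = 0.064 without si-NC replicate 2), which is named after its value was seen. SMN1, also named after its values were seen, was called (0.95, adjusted p = 0.037) on 1 library. It had 994 counts in si-SRSF11 replicate 3 and 221 to 260 in the other 5, the fold change without that library was -0.06 (adjusted p = 0.75), and SMN2 holds 93.1% of the 100-base windows of its longest transcript.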

How the data were processed

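Polyadenylated RNA of 3 si-NC and 3 si-SRSF11 LoVo libraries was sequenced as 150 bp paired ends. The authors deposited raw read counts per gene, with no normalization, on hg38; the aligner and counting program are not given in the sources used here. All 58735 gene identifiers matched GENCODE 29 with the same start, end and merged exon length. Groups came from the deposited labels. The 15801 genes that reached 10 counts in 3 or more libraries were scaled by TMM and tested with glmQLFit and glmQLFTest of edgeR (version 4.0.16, R version 4.3.3), with condition as the only term and Benjamini-Hochberg adjustment across the 15801. The SE was taken from the F statistic. CPM used TMM-scaled library sizes. Ratios were taken on the counts with nothing added and used exact two-sided permutation tests (scipy version 1.17.1). Adding 0.5 counts was tried as an alternative. DESeq2 (version 1.42.0), other scalings and filters, a replicate block and each library left out were tried. The fits were tested on simulated data.

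The genes named are SRSF11, the 10 telomere genes, genes that overlap their exons or start within 1000 bases on the other strand, TERF2IP, and at most 5 genes per list with the smallest adjusted p under 0.05. Some items that these rules would name are not reported here. The genes and lists were chosen with earlier results of these data known. Promoters came from RefSeq (GRCh38.p14). Library totals of 14369525 to 16685719 counts set the precision, and intervals and limits cover counting error or the spread of these libraries only.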

Additional observations from a re-analysis of the deposited data

How the results depend on the processing

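TERF1 kept its direction and its call in all 13 alternatives tried. Under DESeq2, 1 of the telomere genes was called in place of 3. The DKC1 call was lost under DESeq2 (0.14), library size alone (0.11), upper quartile factors (0.14), no filter on low counts (0.14) and protein-coding genes only (0.13), and the ACD call under DESeq2 (-0.26). WRAP53, not called, turned to -0.02 with library size alone, and CARMIL2 to -0.00.

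In fits that left out 1 library, log2 fold changes ran from 0.11 to 0.17 for DKC1, -0.32 to -0.14 for ACD, -0.09 to 0.71 for TERT, -0.05 to 0.06 for WRAP53 and -0.06 to 0.14 for POT1, and -0.13 to 0.00 for TERF2IP. The genes called ran from 1 to 2 for the telomere genes, 3 to 6 for telomerase assembly and 2 to 4 for the shelterin partners. They ran from 3 to 5 for telomere replication, 3 to 8 for the TERT promoter regulators and 5 to 8 for the Cajal body. These fits hold fewer libraries; for the other settings the cause was not tested. The study speaks of pairs of RNA samples but the labels do not say what a number shares, so the numbers were not taken as pairs. Deviations from the group means correlated at 0.000213, 0.0528 and 0.0656 for same-numbered libraries and at -0.0634 to 0.00869 for the others. Deviations cancel within a group, so these values depend on one another and do not settle whether the numbers are pairs. With the number as a replicate block, 4036 genes were called in place of 3886, and TERF1 (0.30), DKC1 (0.15) and ACD (-0.25) passed.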

Other observations

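The exon overlap seen at TERC was also read over the whole table, after the TERC values were seen. Of 282 protein-coding genes whose exon bases are all shared with another gene on the same strand, 220 (78.0%) were listed at 0 in each library, and of 17 whose exon bases are all shared on the opposite strand alone, 16 (94.1%) were. Of 11097 protein-coding genes that share no exon base, 2296 (20.7%) were at 0. Of 649 protein-coding genes with at least 75% of exon bases shared on the same strand, 374 (57.6%) were at 0. Among lincRNA genes, the class with at least 75% of exon bases shared on the same strand had 47 of 53 (88.7%) at 0. This stands beside 3764 of 6268 (60.1%) that share no exon base and 58.3% of all 7629. With all exon bases shared, 26 of 26 lincRNA genes on the same strand and 52 of 52 on the opposite strand alone were at 0. These are counts of the table as deposited and no test was run on them.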
